A study of Mus musculus with 6 samples.

Results

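The expression of 10 mammary luminal and basal keratins was examined in spheroids of D2A1, a mouse mammary tumor cell line. The 10 keratins were Krt7, Krt8, Krt18, Krt19 and Krt20, which mark luminal and other simple epithelia, and Krt5, Krt6a, Krt14, Krt15 and Krt17, which mark basal and stratified epithelia. They were taken by gene name from a table of 54146 genes and each name matched 1 gene. The spheroids grew in Matrigel with either recombinant SLURP1 (rSLURP1, 50 nM) or, as control, recombinant GST (rGST, 50 nM), with 3 libraries of each, and the study's methods give harvest on day 5. D2A1 is a single cell line in culture, and by design no stroma or immune cells of a host were added. The comparison asks how a secreted protein tied to tumor cell quiescence changes the tumor cells, and here it is read on the filament proteins that define epithelial identity.

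Keratins are the intermediate filament proteins of epithelia. Each filament is built from pairs of a type I (acidic) and a type II (neutral to basic) chain, so a cell that makes filaments needs both types, and a keratin left without a partner is usually degraded as protein. Luminal mammary cells classically pair type II Krt8 with type I Krt18, together with Krt7 and Krt19, whereas basal mammary cells pair Krt5 with Krt14. Vimentin is the filament protein of mesenchymal cells and builds filaments without a keratin.

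Expression was given as TPM, a transcript's share of all transcripts in a library after reads are divided by length. TPM keeps no read depth, so the counting error behind each value is unknown, and values here are read against the spread of the 3 libraries. With rGST, 12390 to 12449 genes had at least 1 TPM, and between 11906 and 11981 did so with rSLURP1. No 2 libraries held identical values. The labels do not say whether the libraries came from separate cultures, so the p-values measure the spread between these libraries, which may be technical.

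Krt8 and Krt18 lie side by side on chromosome 15 (GRCm38) and are transcribed away from each other. Krt8 (ENSMUSG00000049382.10) occupies chr15:101996698-102004482 on the minus strand, and Krt18 (ENSMUSG00000023043.7) occupies chr15:102028180-102032027 on the plus strand. Their 5′ ends are 23698 bases apart, and the annotation places 0 genes wholly between them. RP23-342B21.5, a long noncoding RNA gene on the plus strand (chr15:102004212-102009442), starts inside Krt8 and runs into this interval. It spans the Krt8 stretch printed below and was listed at 0 in every library. The DNA before each gene is shown because the pair sits together while its levels differ widely in these libraries. The sequences were taken from the RefSeq promoter table (GRCm38.p6), are written 5′ to 3′ on the strand of the gene, and stop at the 5′ end of the gene in GENCODE M21. The stretch for Krt8 is chr15:102004483-102004592 on the minus strand (110 bases) and that for Krt18 is chr15:102027966-102028179 on the plus strand (214 bases). Capitals mark a match to a KLF4 motif in the Krt8 sequence and to an E-box in the Krt18 sequence.
Krt8: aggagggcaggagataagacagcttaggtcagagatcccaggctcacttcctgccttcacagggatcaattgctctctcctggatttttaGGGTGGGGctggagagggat
Krt18: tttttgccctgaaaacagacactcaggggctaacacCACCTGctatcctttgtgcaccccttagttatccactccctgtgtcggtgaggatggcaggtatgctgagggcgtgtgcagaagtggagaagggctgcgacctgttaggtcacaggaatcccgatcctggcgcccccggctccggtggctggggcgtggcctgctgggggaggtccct

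Motifs were searched on both strands of the 250 bases before each RefSeq start, for the 6 keratins with an entry (Krt5, Krt7, Krt8, Krt14, Krt18 and Krt20) and for all 32851 promoters in the table. The KLF4 motif (CCCCACCC) was found 160 bases before the start of Krt8 and in none of the other 5, and 9.05% of all promoters hold it. The E-box (CAGGTG), the core bound by Snail and ZEB repressors, was found 111 bases before the start of Krt8, 214 bases before Krt18, 44 bases before Krt7 and 128 bases before Krt5, and 17.2% of all promoters hold it. Of the other motifs, the TATA box (TATAAA, 12.4% of all promoters) was matched in Krt20 and the GC box (GGGCGG, 32.7%) in Krt7, and an AP-1 site (TGANTCA, 6.75%) in none of the 6. The window of Krt18 held 12 CpG dinucleotides at 60.4% GC and that of Krt8 held 3 at 58.0% GC, against medians of 6 and 52.4% over all promoters. RefSeq and GENCODE place these starts differently: the windows of Krt7 and Krt14 lie wholly inside the GENCODE M21 genes, as does the E-box of Krt8, so these matches are not upstream of the gene in that annotation. A match is a stretch of letters and was not tested as a bound site.

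Of the 10 keratins, Krt18 alone was abundant. Krt18, the type I chain of simple epithelia, stood at 191.05, 196.77 and 199.07 TPM with rGST and at 196.04, 197.65 and 199.39 TPM with rSLURP1. The 2 treatments overlapped, and the lowest value was that of an rGST library. Its mean was 195.6 ± 4.13 TPM (SD, n = 3) in rGST and 197.7 ± 1.68 TPM (SD, n = 3) in rSLURP1 spheroids, above 94.9% of the genes tested. It supplied between 93.4% and 95.7% of the TPM of all keratins in every library. It was the only 1 of the 10 keratins with a TPM of at least 1 in all 6 libraries.

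**Figure D1:**
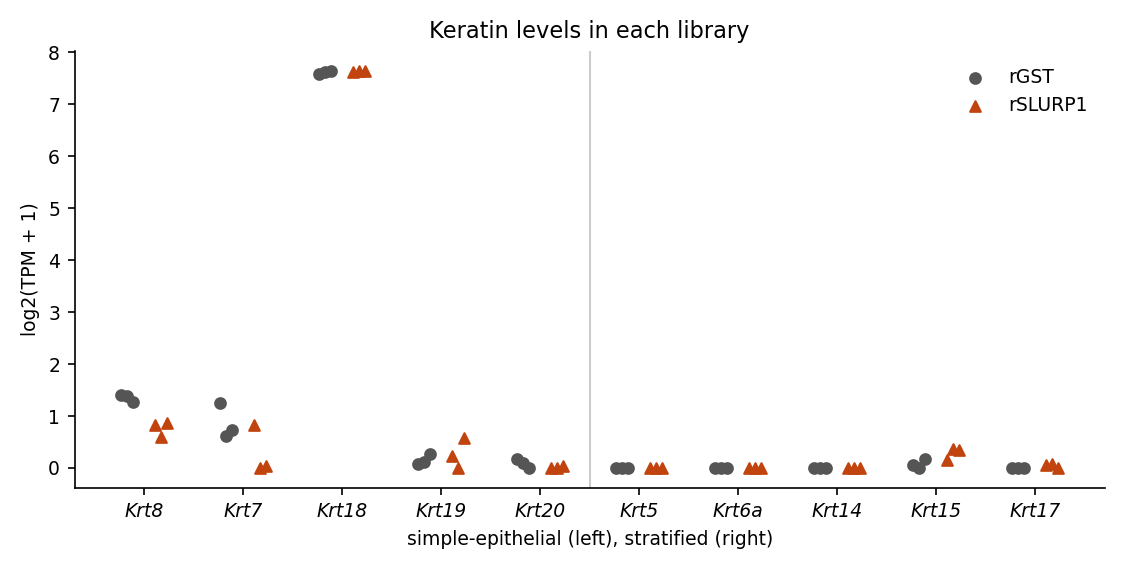
Level of each of the 10 keratins in each library, as log2(TPM + 1), with simple-epithelial keratins left of the line and basal and stratified keratins right of it; circles are the 3 rGST libraries and triangles the 3 rSLURP1 libraries. Krt18 stands alone near 196 TPM, Krt8 and Krt7 lie at or below 1.66 TPM, and the keratins right of the line stay at or below 0.28 TPM.

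The type II partner was nearly absent. Krt8, which pairs with Krt18 in simple epithelia, stood at 1.66, 1.62 and 1.40 TPM with rGST and at 0.77, 0.51 and 0.81 TPM with rSLURP1. Every rSLURP1 library was below every rGST library, with means of 1.56 ± 0.140 and 0.697 ± 0.163 TPM (SD, n = 3), 2.24-fold lower in mean TPM with rSLURP1. Krt7, the other type II keratin of ducts, stood at 1.37, 0.54 and 0.66 TPM with rGST and at 0.77, 0 and 0.03 TPM with rSLURP1. The highest rSLURP1 library of Krt7 lay above 2 of the 3 rGST libraries, so its treatments overlapped, and it was highest in the library numbered 1 of each treatment.

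The remaining luminal keratins stayed at or below 0.49 TPM, in a table with 2 decimals. Krt19, a type I keratin of luminal cells, read 0.05, 0.09 and 0.21 TPM with rGST and 0.17, 0 and 0.49 TPM with rSLURP1. Krt20, a type I keratin of gut and urothelium, read 0.13, 0.07 and 0 TPM with rGST and 0, 0 and 0.03 TPM with rSLURP1. Both overlapped between treatments.

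The basal pair was not detected. Krt5 and Krt14, the pair that defines basal cells, and Krt6a, a type II keratin induced in wounded and hyperproliferative epidermis, were listed at 0 in all 6 libraries. Krt15, a type I keratin of basal progenitors, read 0.04, 0 and 0.13 TPM with rGST and 0.11, 0.28 and 0.27 TPM with rSLURP1. The lowest rSLURP1 library of Krt15 lay inside the rGST range. Krt17, another type I keratin induced by stress and wounding, was listed at 0 in every rGST library and read 0.04, 0.06 and 0 TPM with rSLURP1. With rGST the order of mean TPM was Krt18, Krt8, Krt7 and Krt19 with no overlap between neighbours, and below Krt19 the ranges overlapped. With rSLURP1 Krt18 again lay above Krt8, but Krt8 overlapped Krt7, Krt7 overlapped Krt19 and Krt19 overlapped Krt15.

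rSLURP1 was compared with rGST by limma on log2(TPM + 1), fitted on the 12301 genes that reached 1 TPM in 3 or more libraries, at a threshold of 0.05 after Benjamini-Hochberg adjustment over all of them. Only 2 of the 10 keratins, Krt18 and Krt8, passed this filter. As deposited, 58.5% of all tested genes were called lower with rSLURP1 and 8.66% higher, and the median log2 fold change was -0.33, so a gene without a change in TPM lies above most others. With each library rescaled by the median ratio of its genes, 26% of tested genes were called higher and 25.2% lower.

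Krt18 did not pass the test on the TPM as deposited. Its log2 fold change was 0.02 (SE 0.034, 95% interval -0.065 to 0.096, limma adjusted p = 0.712), and the exact permutation test gave p = 0.6, where 3 libraries against 3 cannot give a two-sided p below 0.1. The interval leaves room for only a small change in TPM in either direction. Relative to the median of all tested genes its log2 fold change was 0.34, and 81.1% of tested genes had a lower one. Its rank among all genes in the table was 706, 686 and 683 with rGST and 575, 597 and 558 with rSLURP1, where rank 1 is the gene with the highest TPM. After median-ratio scaling Krt18 was called higher, with a log2 fold change of 0.37 (SE 0.034, limma adjusted p = 1.07e-04), so whether Krt18 was level or raised depends on the scaling.

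Krt8 was called lower with rSLURP1 as deposited, with a log2 fold change of -0.60 (SE 0.152, 95% interval -0.95 to -0.24, limma adjusted p = 0.00968) on the log2(TPM + 1) scale, which understates the change of a gene this low. The exact permutation test gave p = 0.1, the smallest it can give. Krt8 reached 1 TPM in 3 rGST libraries and 0 rSLURP1 libraries, so it entered the test only because it was higher with rGST. Its groups did not overlap, as was so in the same direction for 61.7% of tested genes. Its log2 fold change was -0.27 relative to the median of all tested genes, and 23.9% of them had a lower one. After median-ratio scaling it was -0.41 and no longer passed the test (limma adjusted p = 0.0554).

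The 8 keratins under the filter had no test in that fit. When all 23334 genes with a value that could be fitted were kept, Krt7 had a log2 fold change of -0.58 (95% interval -1.27 to 0.11, limma adjusted p = 0.191) and Krt15 one of 0.21 (95% interval 0.019 to 0.39, limma adjusted p = 0.0930). Krt19 (0.11), Krt20 (-0.077) and Krt17 (0.047) did not pass either, with limma adjusted p-values of 0.632, 0.319 and 0.295.

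**Figure D2:**
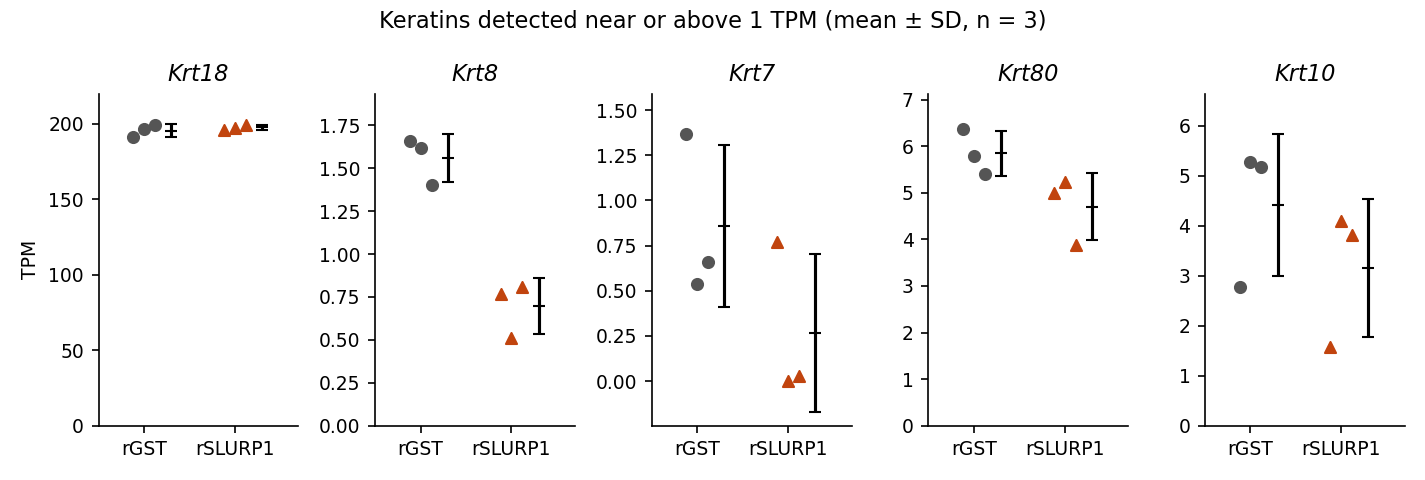
TPM of the keratins near or above 1 TPM in each library, each panel on its own linear axis, with the mean and SD of 3 libraries beside the points; circles are rGST and triangles rSLURP1. Krt18 is level at 195.6 and 197.7 TPM, Krt8 and Krt80 separate by treatment, and Krt7 and Krt10 overlap.

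**Figure D3:**
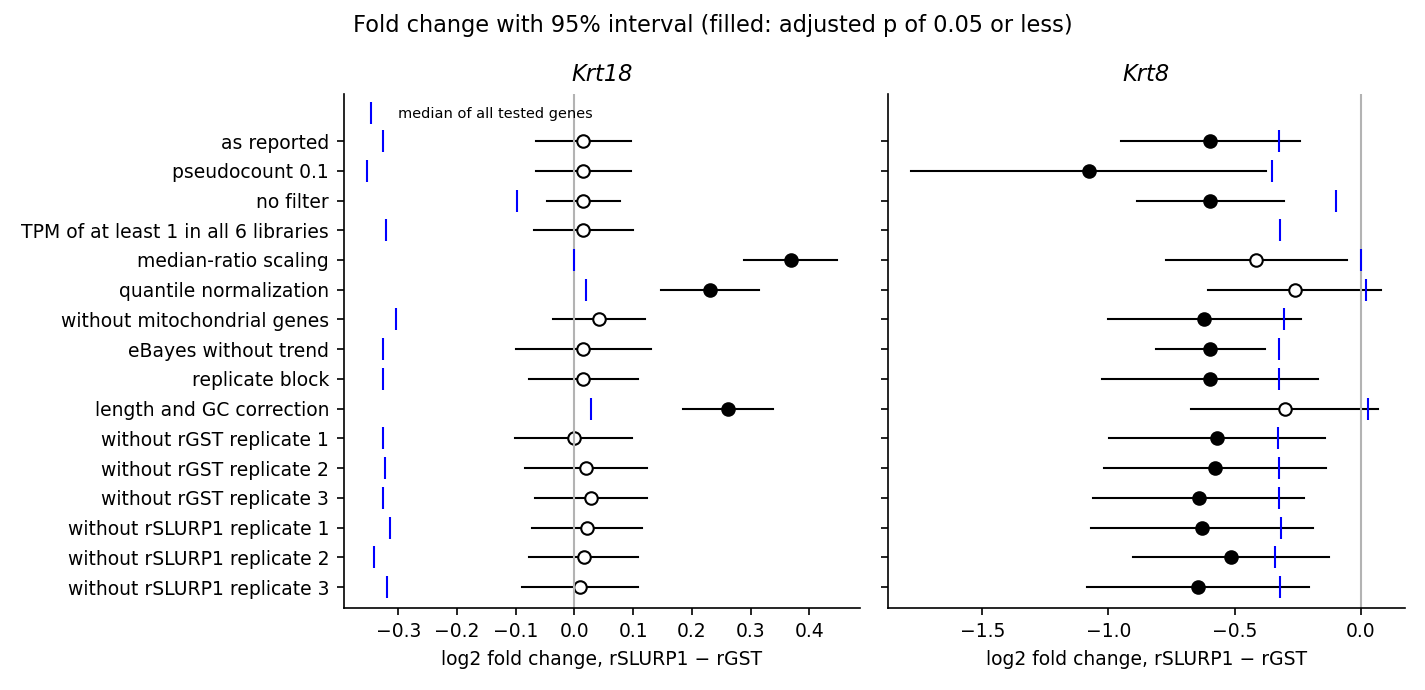
Log2 fold change of Krt18 (left) and Krt8 (right), rSLURP1 minus rGST, with its 95% interval under each way of processing the table; filled points passed an adjusted p of 0.05 and blue ticks give the median of all tested genes. Krt18 passes after scaling by median ratio, by quantiles or for length and GC content (0.37, 0.23 and 0.26), the same ones under which Krt8 no longer does (-0.41, -0.26 and -0.30).

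Other type II keratins were examined because Krt18 can pair with more than Krt8. The table held 55 keratin genes, of which 35 were listed at 0 in all 6 libraries, and 2 of the 45 outside the luminal and basal members passed the filter. Krt80, a broadly expressed type II keratin of epithelia, stood at 6.36, 5.78 and 5.40 TPM with rGST and at 4.99, 5.24 and 3.88 TPM with rSLURP1. Every rSLURP1 library was below every rGST library, but the log2 fold change of -0.27 (SE 0.125) did not pass the test (limma adjusted p = 0.0908), and it was 0.028 after median-ratio scaling. Krt10, the type I keratin of the upper epidermis, stood at 2.77, 5.28 and 5.18 TPM with rGST and at 1.57, 4.09 and 3.82 TPM with rSLURP1 and overlapped (log2 fold change -0.40, SE 0.308, limma adjusted p = 0.274). Krt80 was thus the most abundant type II keratin of these spheroids, and it gave 65.6% to 70.5% of type II TPM with rGST and 76.1% to 90.7% with rSLURP1.

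The 2 types were far from equal. All type I keratins summed to 200.5 ± 5.56 TPM with rGST and 202.2 ± 3.60 TPM with rSLURP1, and all type II keratins to 8.62 ± 0.943 and 5.80 ± 0.715 TPM (SD, n = 3). The ratio of type I to type II TPM was 20.0, 24.7 and 25.7 in the rGST libraries and 30.4, 35.1 and 40.3 in the rSLURP1 libraries, without overlap. The ratio of Krt18 to Krt8 TPM was 115, 121 and 142 with rGST and 255, 388 and 246 with rSLURP1. Ratios within a library do not depend on a scaling factor between libraries. Quantile normalization and a correction for length and GC content, however, move genes by unequal amounts. Krt18 and Krt80 had log2 fold changes of 0.02 and -0.27 as deposited. These were 0.23 and 0.12 with quantile normalization, and 0.26 and 0.18 with the length and GC correction. Both ratios rest on low type II values, at most 9.70 TPM for the sum. Krt18 was level in TPM as deposited, while 61.7% of tested genes were lower with rSLURP1 without overlap. A higher ratio of Krt18 to another gene is therefore not particular to type II keratins.

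Reads from related sequences could be assigned to these genes. Transcripts sharing at least 500 bases at 85% identity were sought by blastn. Krt8-ps, a pseudogene, matched Krt8 at 98.6% over 941 bases and was at or below 0.05 TPM, and Gm5200 matched Krt18 at 90.5% over 1267 bases. Krt14 shared 89.4% identity with Krt17 over 961 bases and Krt6a shared 92.6% with Krt6b over 2184 bases, so low values among these could be shared out between them. A Krt7 transcript also shared a short stretch (median 177 bases) with 970 other genes, which makes its low TPM uncertain. Genes on the opposite strand overlapping Krt8 and Krt7 were listed at 0. Gm35853, opposite Krt80, reached 2.08 TPM in rSLURP1 replicate 2, and Gm11940, opposite Krt10, reached 0.75 TPM there. Whether counting used strand is not given in the sources used here.

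Epithelial identity was checked with genes other than keratins. Epcam, a surface protein of epithelial cells, was listed at 0 in all 6 libraries, and Cdh1, the adhesion molecule E-cadherin, was at or below 0.07 TPM. Vim, vimentin, stood at 1253, 1340 and 1184 TPM with rGST and at 654.7, 698.5 and 640.3 TPM with rSLURP1. Of the 4 markers set to check the labelled epithelial tumor cell, Krt18 was thus abundant, Krt8 was low, and Epcam and Cdh1 were at or near 0.

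Vim was lower with rSLURP1, from 1259 ± 78.4 to 664.5 ± 30.3 TPM (SD, n = 3), a log2 fold change of -0.92 (SE 0.055, limma adjusted p = 9.52e-06). It was also lower after median-ratio scaling (-0.57). The ratio of Vim to Krt18 TPM was 6.56, 6.81 and 5.95 with rGST and 3.34, 3.53 and 3.21 with rSLURP1, so Vim exceeded Krt18 in every library and by less with rSLURP1. As deposited, 81.1% of tested genes had a lower log2 fold change than Krt18. Of the 16 other intermediate filament genes, 6 were tested, 4 of these were called lower (Vim and the nuclear lamins Lmna, Lmnb1 and Lmnb2) and 0 higher. Their median log2 fold change was -0.44, beside -0.33 for all tested genes, of which 58.5% were called lower and 8.66% higher. After median-ratio scaling 2 of the 6 were called lower and 1 higher, beside 25.2% and 26% of all tested genes.

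**Figure D4:**
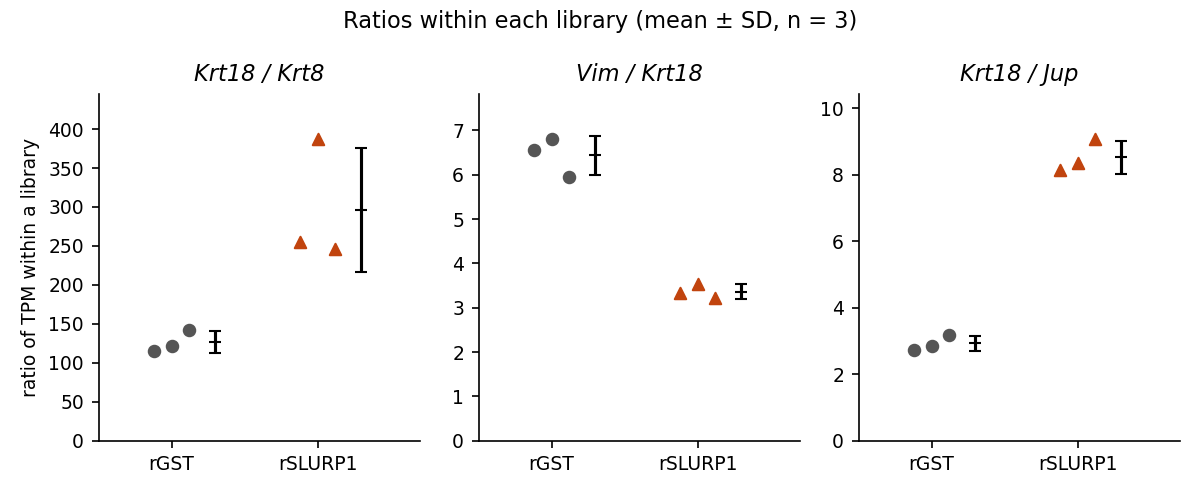
Ratio of TPM within each library for Krt18 over Krt8, Vim over Krt18 and Krt18 over Jup, with the mean and SD of 3 libraries beside the points. The treatments do not overlap in any panel: Krt18 over Krt8 lies at 115 to 142 with rGST and 246 to 388 with rSLURP1, Vim over Krt18 at 5.95 to 6.81 and 3.21 to 3.53, and Krt18 over Jup at 2.73 to 3.18 and 8.13 to 9.08. Krt18 was level in TPM as deposited, while 61.7% of tested genes were lower with rSLURP1 without overlap, so such a separation is not particular to these pairs.

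Desmosomes are the junctions that anchor keratin filaments between cells. Dsp, desmoplakin, which ties keratin to the junction, was at or below 0.02 TPM, and 5 cadherins of the junction (Dsc2, Dsc3, Dsg1a, Dsg2 and Dsg3) were listed at 0. Of the 15 desmosome and linker genes, 6 were tested, 4 were called lower and 1 higher, with a median log2 fold change of -0.53. Of all tested genes 58.5% were called lower and 8.66% higher, with a median of -0.33. After median-ratio scaling 2 of the 6 were called lower and 1 higher, beside 25.2% and 26% of all tested genes. Jup, plakoglobin, which also acts at cadherin junctions outside desmosomes, had the largest decrease, from 67.1 ± 4.0 to 23.2 ± 1.13 TPM (log2 fold change -1.49, limma adjusted p = 2.17e-06; -1.14 after median-ratio scaling). Perp, a tetraspan protein of desmosomes, was also lower (-0.62), as was Ppl, periplakin (-0.57), which like Krt8 entered the test only through the rGST libraries and missed the threshold after median-ratio scaling (limma adjusted p = 0.0504). Pkp2, plakophilin 2, was higher, from 8.30 to 10.5 TPM (log2 fold change 0.31, limma adjusted p = 0.0259), but the call was lost without rGST replicate 3 (0.22), rSLURP1 replicate 1 (0.32) or rSLURP1 replicate 2 (0.27). It was also lost with the filter dropped (0.31, limma adjusted p = 0.0671).

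Among the 8 hemidesmosome and plakin genes, which link keratin to the basement membrane side of the cell, 5 were tested, with 2 called lower, 0 higher and a median log2 fold change of -0.033 (1 lower and 3 higher after median-ratio scaling). Of all tested genes, 58.5% were called lower and 8.66% higher (25.2% and 26% after median-ratio scaling). Macf1, a linker of actin and microtubules, was lower (-0.56, and -0.22 after median-ratio scaling), and the call was lost with the length and GC correction (-0.095, limma adjusted p = 0.222). Plec, plectin, which connects intermediate filaments to many partners, was lower as deposited (-0.36, limma adjusted p = 0.00342) but not after median-ratio scaling (-0.024, limma adjusted p = 0.806). Of 12 keratin-binding and keratin-modifying genes, 10 were tested and 9 were called lower, beside 58.5% of all tested genes. Their median of -0.34 is close to the -0.33 of all tested genes. After median-ratio scaling 3 of these were called higher and 3 lower. Fbf1 (-0.92), Pnn (-0.80) and Pias1 (-0.64) had the largest decreases, and Pnn encodes pinin, a protein of the nucleus and of desmosomes. Pias1 was not called with quantile normalization (-0.24, limma adjusted p = 0.0879) or the length and GC correction (-0.25, limma adjusted p = 0.0644).

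**Figure D5:**
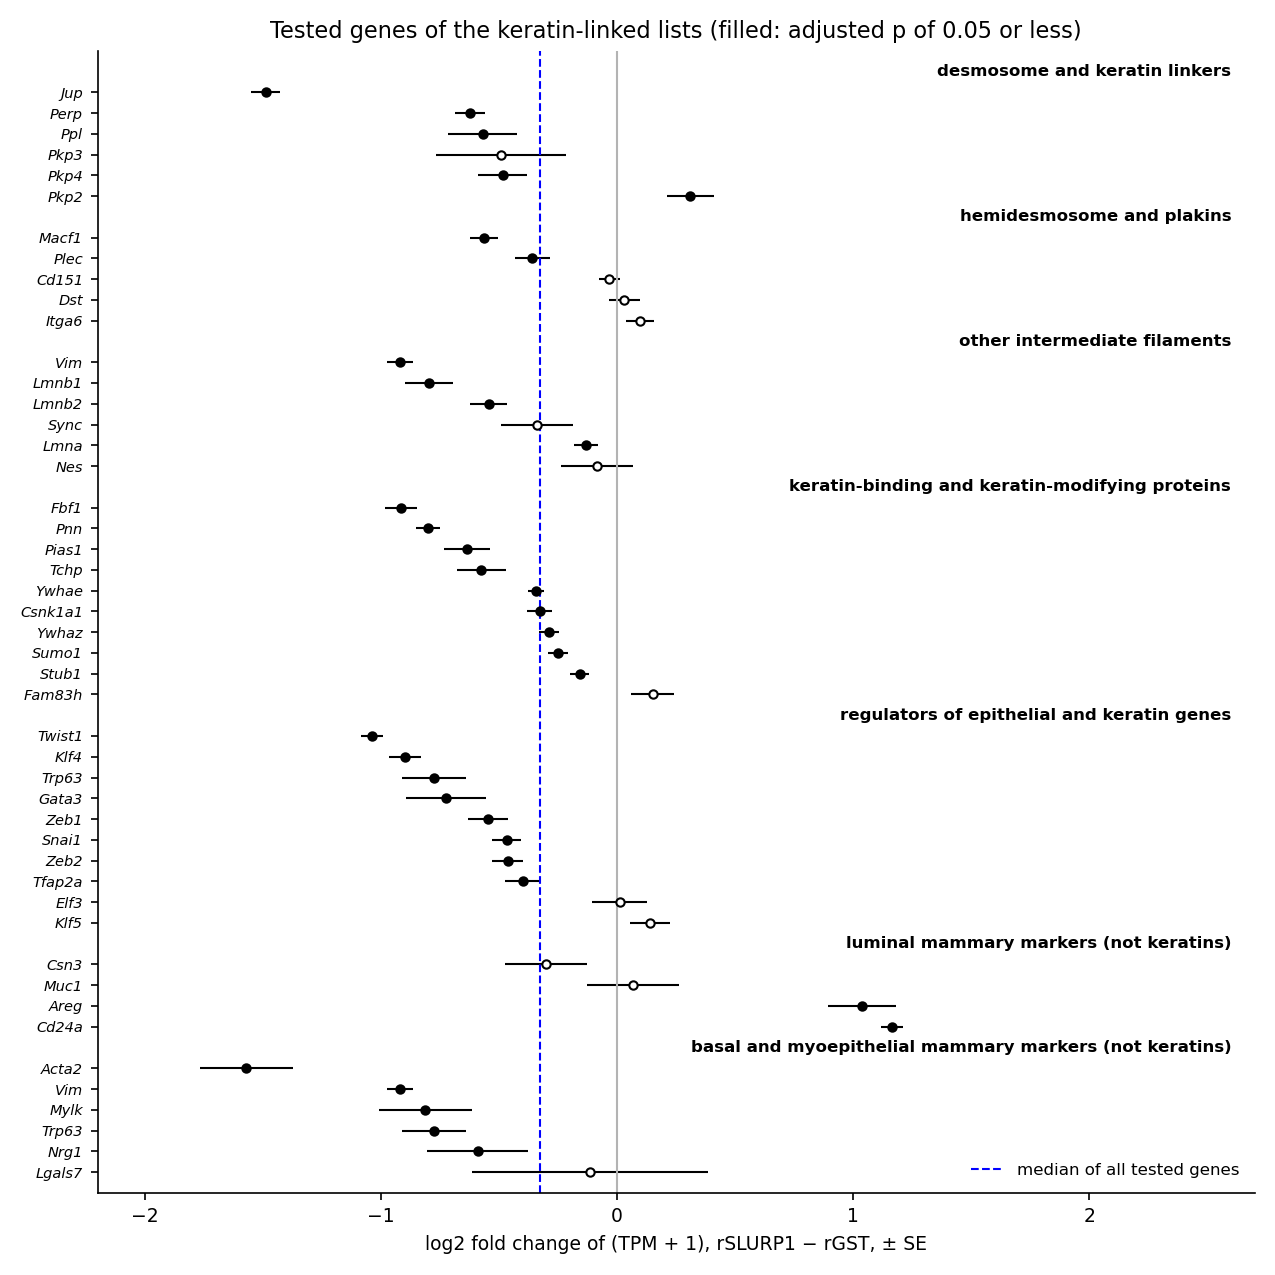
Log2 fold change of log2(TPM + 1), rSLURP1 minus rGST, with its SE for every tested gene of the 7 keratin-linked lists; filled points passed an adjusted p of 0.05 and the dashed line is the median of all tested genes at -0.33. Jup (-1.49) and Acta2 (-1.57) lie farthest left, and Cd24a (1.16) and Areg (1.04) farthest right.

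Of 23 regulators of epithelial and keratin genes, 10 were tested, 8 were called lower and 0 higher, with a median log2 fold change of -0.51, beside 58.5% of all tested genes called lower and a median of -0.33. After median-ratio scaling 4 were called lower and 1 higher, beside 25.2% and 26% of all tested genes. Twist1, a repressor of epithelial genes, was lower, from 231.7 to 112.5 TPM (-1.04, limma adjusted p = 2.88e-06; -0.68 after median-ratio scaling). Klf4, a factor of epidermal differentiation, was lower, from 33.3 to 17.4 TPM (-0.90, limma adjusted p = 2.51e-05; -0.56 after median-ratio scaling). Trp63, a regulator of basal keratins, was lower, from 4.01 to 1.93 TPM (-0.78, limma adjusted p = 0.00158; -0.52 after median-ratio scaling), and the call was lost with the length and GC correction (-0.38, limma adjusted p = 0.0551), while its classical targets Krt5 and Krt14 were listed at 0 under both treatments.

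Luminal and basal markers other than keratins were sparse. Of 16 luminal markers 8 were listed at 0 in all libraries and 4 were tested, with 2 called higher and 0 lower as deposited and after median-ratio scaling. The share of all tested genes called higher was 8.66% as deposited and 26% after median-ratio scaling. Cd24a, a surface protein high in luminal cells but not confined to them, was higher, from 63.0 to 142.6 TPM (1.16, limma adjusted p = 1.53e-06), and Areg, a ligand of the EGF receptor, from 24.1 to 50.4 TPM (1.04). Gata3, a luminal factor counted among the regulators, went the other way as deposited, from 3.72 to 1.86 TPM (-0.72, limma adjusted p = 0.0062). The luminal keratin Krt8 was also lower as deposited. Of 15 basal markers 6 were tested, with 5 called lower and 0 higher (4 and 0 after median-ratio scaling), where 58.5% of all tested genes were called lower and 8.66% higher (25.2% and 26% after median-ratio scaling). Acta2, smooth muscle actin of myoepithelial cells, was lower, from 3.70 to 0.573 TPM (-1.57), and Mylk, myosin light chain kinase, from 1.89 to 0.650 TPM (-0.81), and both entered the test only through the rGST libraries. Mylk was not called with quantile normalization (-0.49, limma adjusted p = 0.0742) or the length and GC correction (-0.31, limma adjusted p = 0.221). Vim and Trp63 are in 2 of the lists each.

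Genes used as markers of other cell types moved with the treatment and stand beside all of these results. Of 6 fibroblast markers 5 were tested and all 5 were called lower, where 58.5% of all tested genes were called lower. Of these 5, Col1a1 reached 1 TPM in 3 rGST libraries and 0 rSLURP1 libraries, so it entered the test only through the rGST libraries. The summed level of the 6 was 1007 to 1138 TPM with rGST and 75.2 to 85.1 TPM with rSLURP1. Of 4 leukocyte markers 1 was tested, Cd68, which was higher, and the sum was 3.58 to 4.08 and 7.85 to 10.6 TPM, while Ptprc, the defining leukocyte marker, was at or below 0.01 TPM. Endothelial markers summed to at most 0.31 TPM, skeletal muscle markers to at most 0.22 TPM and adipocyte markers to at most 1.74 TPM. Of 5 keratinocyte markers, Krt10 was tested and the other 4 were listed at 0. By design the culture was of D2A1 cells. A marker name alone does not show that cells of that type were present, and whether they were was not tested. In bulk RNA fewer cells expressing a gene and less of its RNA per cell cannot be told apart. The part of the fibroblast genes in the keratin results was not tested.

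The genes whose pattern over the 6 libraries was closest to each tested keratin were sought by the root-mean-square difference of mean-centred log2(TPM + 1). For Krt18 these were Ybx1 (0.0145), Sar1b (0.0170) and Tmbim1 (0.0203), and for Krt8 they were Sppl2b (0.0363), Mier1 (0.0377) and Atg9b (0.0426), in log2 units. Krt8 ranked 8466 in the list for Krt18, and Krt18 ranked 8620 in the list for Krt8. This measure includes the difference between treatments, so the ranks are not separate from the log2 fold changes of 0.02 for Krt18 and -0.60 for Krt8. Krt8, at or below 1.66 TPM, was among the tested genes only through the rGST libraries. Among other genes within 50000 bases, Krt78 was at or below 0.07 TPM and RP23-342B21.5 was listed at 0. Eif4b, a translation initiation factor, was lower, from 385.1 to 327.7 TPM (log2 fold change -0.23, SE 0.033), which is 0.09 above the median of all tested genes.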

How the data were processed

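RNAseq of D2A1 spheroids was analysed in 6 libraries grouped by the labels, 3 rSLURP1 and 3 rGST. Reads were trimmed by the authors with Cutadapt (1.18), mapped to mm10 with STAR (2.5.2b) and quantified with RSEM (1.3.3 in the submitters' processing notes), and the authors deposited TPM with 2 decimals, 1 column per library. The methods name GENCODE M12 and Smart-seq2, and the labels a TruSeq mRNA kit. Coordinates came from GENCODE M21 on the same build, which held 54079 of the 54146 identifiers without version. TPM keeps no depth, so no counting error was computed.

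Genes reaching 1 TPM in 3 or more libraries were tested on log2(TPM + 1) with limma 3.58.1 in R 4.3.3 (lmFit, eBayes with trend), without a block, with Benjamini-Hochberg adjustment at 0.05. Exact permutation tests were two-sided. The script was tested on simulated data. Sequence similarity used blastn 2.17.0, tables pandas 2.3.3 and figures matplotlib 3.10.9 in Python 3.11.15.

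The keratins, gene lists and motifs were chosen with earlier results of these data known. The genes named are all 10 keratins, every other tested keratin, the 3 called genes with the largest change in each direction in each list, Cdh1, Epcam, Vim, Dsp, Jup, Plec, Klf4 and Trp63, and the 3 genes most like Krt8 and Krt18. Genes named beyond these were chosen after their values were seen. Alternatives were quantile or median-ratio scaling, a loess correction (span 0.3) for GC content and length of transcripts, a block for the replicate number, each library left out, a pseudocount of 0.1, the filter dropped or required in all 6 libraries, mitochondrial genes left out, and eBayes with no trend.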

Additional observations from a re-analysis of the deposited data

How the results depend on the processing

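Scaling changed the calls of Krt18 and Krt8. Krt18 (0.02 as deposited) was called higher at 0.37 with median-ratio scaling, 0.23 with quantile normalization and 0.26 when corrected for the length and GC content of transcripts (limma adjusted p = 1.07e-04, 0.00153 and 5.61e-04), and Krt8 (-0.60 as deposited) was not called at -0.41, -0.26 and -0.30 (0.0554, 0.176 and 0.150). Under those 3 settings 1 keratin was called higher (0 as deposited) and 0 lower (1 as deposited), and 0 were lower with the filter in all 6 libraries, which removes Krt8. All tested genes called higher numbered 3198, 3111 and 3313 (1065 as deposited) and those called lower 3094, 2905 and 2701 (7200 as deposited). Krt80 (-0.27) turned to 0.028, 0.12 and 0.18, and Plec to 0.038 with quantile normalization. The cause was not tested. Leaving out each library in turn gave -0.0017 to 0.028 for Krt18, never called, and -0.65 to -0.51 for Krt8, called each time. These fits kept the filter set on all 6 libraries, which Krt8 passed only through the rGST libraries, so they are no separate support for Krt8. With a pseudocount of 0.1 Krt8 was -1.08 (limma adjusted p = 0.0146). With medians in place of means 0 keratins changed place in the order of levels with rGST and 3 did so with rSLURP1, a comparison chosen after seeing the data, where Krt19 and Krt15 had the same mean.

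The replicate number as a block left Krt8 at -0.60 (limma adjusted p = 0.0265), gave 1008 genes higher and 6954 lower, and turned Krt10 into a call (-0.40, limma adjusted p = 0.0311). Over all tested genes, same-numbered libraries did not deviate together (correlations -0.056, -0.034 and -0.061). This shows no shared effect of the number but cannot show that the samples were unpaired. Krt10 was lowest in the library numbered 1 of each treatment (2.77 TPM with rGST and 1.57 TPM with rSLURP1). For 21 of the genes named from the lists and the other keratins, 289 values over the alternatives kept direction and side of the threshold, 18 lost the call, 1 gained it and 4 changed sign. Since TPM gives no depth, no counting error could be set on the keratins below 1 TPM.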

Other observations

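Krtcap2, keratinocyte-associated protein 2, is a subunit of the oligosaccharyltransferase complex and no keratin, and its name matches only in part. It was chosen after its values were seen. It was higher with rSLURP1, from 194.2 ± 5.11 to 373.9 ± 14.5 TPM (SD, n = 3), a log2 fold change of 0.94 in limma, so with rGST its level was close to that of Krt18 and with rSLURP1 it was above it.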
